A study of Mus musculus with 17 samples.

Results

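The 10 genes described here are p53, its main antagonist, genes that p53 switches on, and inhibitors of the cell cycle that are linked to old muscle. They were taken by symbol and make up 10 of the 36172 gene rows of the table: Cdkn1a, Cdkn2a, Cdkn2b, Gadd45a, Gadd45b, Gadd45g, Trp53, Mdm2, Ccng1 and Eda2r. All 10 are described whatever their values, but they were chosen with earlier results of these data known. The extensor digitorum longus (EDL), a shin muscle made mostly of fast fibres, supplied RNA for sequencing from 17 mice aged 22 or 23 months. The question the series title names is whether Hand2, a transcription factor of sympathetic neurons, preserves those neurons and prevents sarcopenia, the loss of muscle with age. The control group was given an empty vector and held 5 females (replicates 1 and 2 of 22 months and replicates 3, 4 and 5 of 23 months) and 5 males (replicates 6 to 9 of 23 months and replicate 10 of 22 months). The Hand2 vector group held 4 females (replicates 1, 2 and 3 of 22 months and replicate 5 of 23 months) and 3 males (replicate 4 of 22 months and replicates 6 and 7 of 23 months). All animals thus carried a vector, and no young or untreated animals were analysed here. The promoter of the vector, its route and the time of its delivery are not stated in the labels.

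Libraries held 19181208 to 30942818 estimated counts (median 26091234), so that 3 counts were worth between 0.097 and 0.156 CPM, a unit that scales counts to the size of the library. The Hand2 transcript was higher in all 7 Hand2 libraries than in all 10 controls (exact permutation test, two-sided, p = 5.14e-05, the smallest these splits can give). It lay between 1.02 and 26.3 CPM with Hand2 and between 0.071 and 0.94 CPM in controls, so the nearest animals of the groups differed little. The edgeR test used below did not call Hand2 itself (log2 difference 3.63 ± 0.57 SE, edgeR adjusted p = 0.124). Within females its edgeR adjusted p was 0.783. Markers of muscle fibres, the tissue named in the labels, summed to between 62026 and 77409 CPM in every library. In whole muscle, fewer cells of a type and less RNA per cell cannot be told apart.

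The protein p53, encoded by Trp53, is a transcription factor that cells stabilise after DNA damage and other stresses. Mdm2 is itself a p53 target and marks p53 for destruction, which closes a feedback loop. Cdkn1a encodes p21, which blocks cyclin-dependent kinases (CDKs) and is the classical arrest gene downstream of p53, while Cdkn2a (p16 and p19ARF) and Cdkn2b (p15) act on the CDKs of the retinoblastoma pathway or, for p19ARF, on Mdm2. The GADD45 proteins bind cell-cycle and stress-kinase partners, and Gadd45a is known in muscle as a gene that rises after loss of the nerve. Ccng1, or cyclin G, is a p53 target, and Eda2r is a receptor of the tumour necrosis factor family that p53 also induces and whose transcript is known to rise in aged tissues.

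Because these genes are grouped by a shared regulator, their promoters were searched for the p53 binding motif, the decamer of which a full response element holds a pair. RefSeq start sites (GRCm38.p6) gave 12 promoters for the 10 genes, and the 250 bases before each were read on both strands. The motif was found before 5 of the 10 genes, namely Cdkn1a, Gadd45a, Mdm2, Ccng1 and Trp53, in 5 of their 12 promoters. Of all 32851 promoters of that length 7.13% held it. The stretches below lie around the matches in the promoters of 4 of them, in the direction of transcription, and capitals mark the motif. The Trp53 match lies among exon bases of the neighbouring gene Wrap53 and is not printed, and the Gadd45a stretch, cut to 30 bases, lies within bases that GENCODE counts as exon of Gadd45a itself.
Cdkn1a, chr17:29090866-29090975, plus strand: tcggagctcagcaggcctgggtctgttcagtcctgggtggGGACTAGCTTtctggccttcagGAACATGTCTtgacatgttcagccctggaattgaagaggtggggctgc
Mdm2, chr10:117710895-117710984, minus strand: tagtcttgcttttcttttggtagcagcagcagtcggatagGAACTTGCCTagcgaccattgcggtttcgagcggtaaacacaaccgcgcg
Ccng1, chr11:40755422-40755511, minus strand: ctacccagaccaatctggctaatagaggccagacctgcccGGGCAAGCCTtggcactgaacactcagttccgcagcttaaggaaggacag
Gadd45a, chr6:67037428-67037457, minus strand: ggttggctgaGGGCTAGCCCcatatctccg
Of these promoters the one of Cdkn1a held 2 matches and the other 3 held 1 each. A further Cdkn1a promoter, chr17:29093519-29093768, is not printed and held 0. A TATAAA box was read before 4 of the 10 genes (Eda2r, Gadd45b, Gadd45g and Trp53), in 4 of the 12 promoters, against 12.4% of all promoters. The E-box CACGTG was read before 2 genes (Gadd45b and Gadd45g), in 2 of the 12 promoters, against 6.02%. A match is a string of letters and not a measured binding site, and known p53 sites farther from the start or within introns lie outside these windows. Only full matches to the motif are in capitals, so a near match beside them stays in lower case.

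On the scale of CPM per kilobase of transcript, which allows genes to be set beside each other, Ccng1 was the most abundant of the 10 genes with a mean of 276.9 over the 17 animals. Gadd45g (89.6), Gadd45a (64.5), Cdkn1a (52.0), Gadd45b (35.02) and Mdm2 (25.2) followed. Trp53 itself was at 10.9, Eda2r at 6.25, Cdkn2b at 0.852 and Cdkn2a at 0.0701. The ranges over animals did not overlap between Ccng1 (233.5 to 317.5) and Mdm2 (21.8 to 29.9), or between Mdm2 and Trp53 (7.23 to 13.4). Those of Gadd45g (26.2 to 238.2), Gadd45a (35.3 to 185.5), Cdkn1a (15.6 to 128.9) and Gadd45b (10.0 to 143.0) overlapped each other, so the order among these 4 differed from animal to animal. The range of Eda2r, from 2.94 to 13.4, overlapped that of Trp53.

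Animals of the same vector and sex differed widely in 5 of the genes. The within-group SD on the log2 scale was 1.02 for Gadd45g, 0.91 for Gadd45b, 0.60 for Cdkn1a, 0.48 for Gadd45a and 0.45 for Eda2r. Among genes whose mean lay within a factor of 2 of their own, 99.5%, 99.4%, 98.1%, 96.7% and 96.0% respectively had a smaller SD. Ccng1 stood at the other end, with an SD of 0.07 that only 10.7% of genes of like abundance undercut, and Mdm2 (0.12, 56.6%) and Trp53 (0.25, 80.4%) lay between. Cdkn2b had an SD of 0.47, but at its low level 54.5% of genes had a smaller one. From the lowest to the highest animal, Gadd45b spanned 14.3-fold and Ccng1 1.36-fold.

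**Figure D1:**
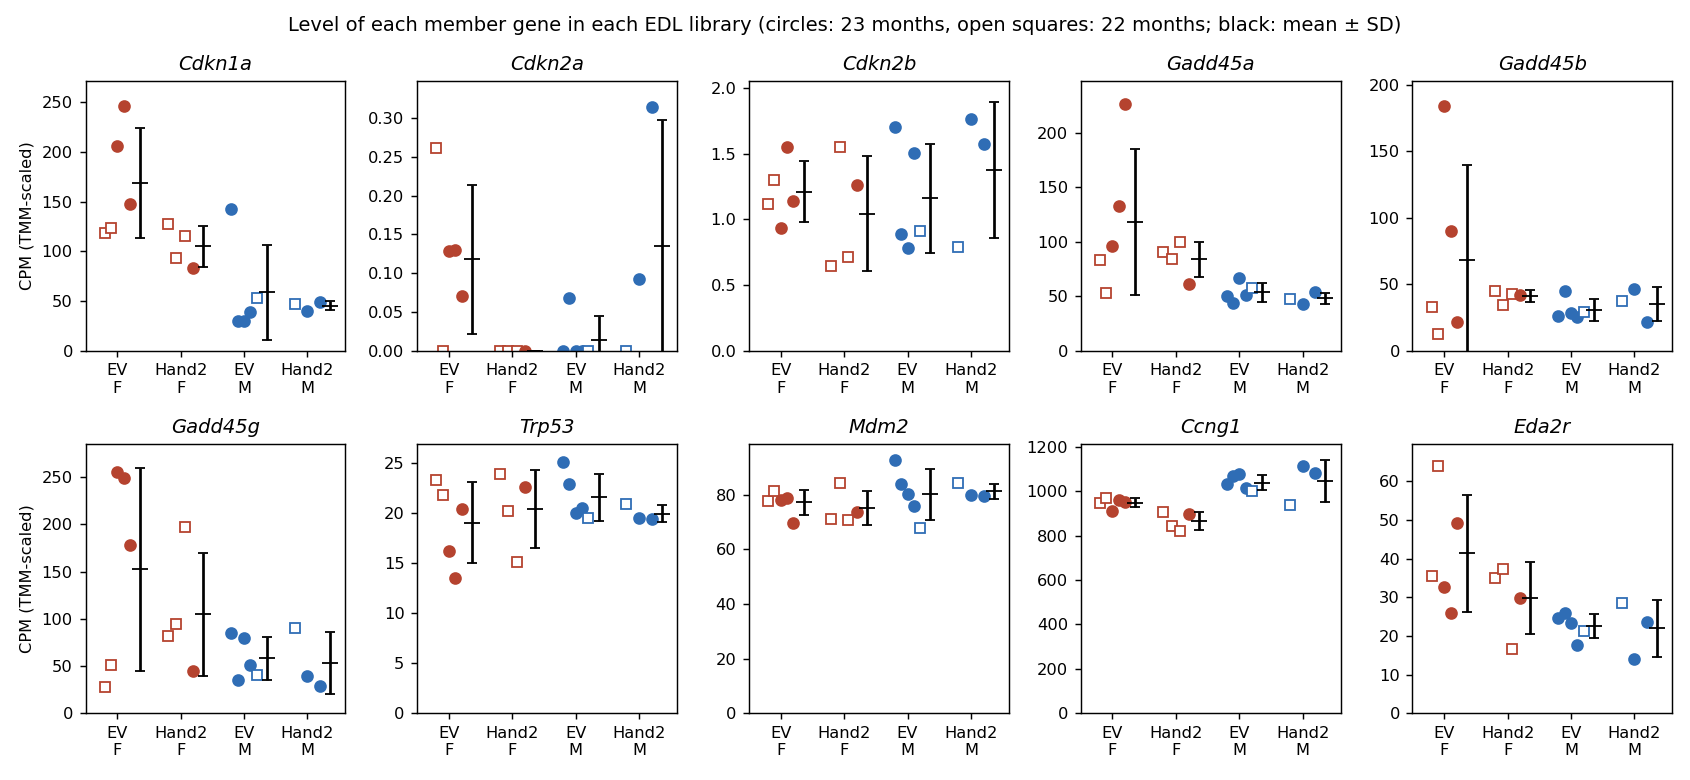
Level of each of the 10 genes in each library, in TMM-scaled CPM on a linear axis that starts at 0, by vector (EV is empty vector) and sex (F, M). Circles are animals of 23 months, open squares animals of 22 months, and black bars the group mean ± SD; Cdkn1a lies between 83.3 and 246.6 CPM in females and below 53 in all males but 1, while Ccng1 and Mdm2 vary little.

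The comparison of vectors asks whether the aged muscle of Hand2 animals held other levels of these genes than that of controls. No gene of the 10 passed the test. Of the 9 that passed the filter on low counts, 0 were called at an adjusted p under 0.05, and 0 of 13965 genes were called in the whole table, a background of 0%. At an unadjusted p under 0.05 there were 0 of the 9 and 705 of all genes, and DESeq2 called 1 gene in the whole table and 0 of the 9. The sign was negative for 8 of the 9 genes, with a median log2 fold change of -0.28, against 51.7% of all genes and a median of -0.004.

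Trp53 stood at a mean of 20.3 ± 3.40 CPM in the 10 controls and 20.2 ± 2.80 CPM in the 7 Hand2 animals (± SD here and below). Its fitted log2 difference of 0.003 ± 0.11 (SE) had a 95% interval from -0.23 to 0.23 (edgeR adjusted p = 0.998). For Mdm2 the group means were 78.6 ± 7.04 and 77.7 ± 5.77 CPM, and the interval of the log2 difference ran from -0.13 to 0.11 (edgeR adjusted p = 0.988). For Ccng1 they were 993 ± 54.3 and 942 ± 114 CPM, with an interval from -0.15 to 0.02 (edgeR adjusted p = 0.921). Each of these 3 intervals includes 0 and reaches no farther than 0.23 from it.

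The estimates for the arrest gene and the GADD45 genes were less precise. Cdkn1a averaged 113.7 ± 75.7 CPM in controls and 79.3 ± 34.9 CPM with Hand2, a log2 difference of -0.54 ± 0.30 (SE, 95% interval -1.19 to 0.10, edgeR adjusted p = 0.921). Without the control male with the highest male Cdkn1a value, empty-vector replicate 6, that difference was -0.27. Gadd45a differed by -0.34 ± 0.23 on the log2 scale (95% interval -0.83 to 0.14), with means of 86.2 ± 56.5 and 68.6 ± 22.5 CPM. Gadd45g, at 105.3 ± 88.5 and 82.6 ± 57.0 CPM, differed by -0.35 ± 0.45 (95% interval -1.32 to 0.62, edgeR adjusted p = 0.95), and Gadd45b, at 49.4 ± 51.7 and 38.6 ± 8.48 CPM, by -0.30 ± 0.44 (95% interval -1.25 to 0.65). The SDs of the control group exceeded the difference between the means for each of these 4 genes, as they did for Trp53, Mdm2 and Ccng1. Those SDs pool females and males, so they hold the sex difference that the fit removes.

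Eda2r averaged 32.0 ± 14.3 CPM in controls and 26.4 ± 8.85 CPM with Hand2, a log2 difference of -0.28 ± 0.21 (95% interval -0.72 to 0.16, edgeR adjusted p = 0.923). Cdkn2b was low in both groups, at 1.18 ± 0.319 and 1.18 ± 0.464 CPM, and its interval ran from -0.51 to 0.49. Cdkn2a was the gene that did not pass the filter. It held 26 counts in all 17 libraries together, 18 in 5 of the 10 controls and 8 in 2 of the 7 Hand2 animals, and it was at 0 in the other 10 libraries, where a level of up to the 3-count floor is allowed. Exact permutation of the animals, two-sided and on log2(CPM + 0.1), gave p = 0.678 for the vector and p = 0.801 for sex.

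Within females the vector differences of the 9 tested genes were negative for 8, with a median of -0.48, and 0 passed the adjusted threshold (background 0%). Ccng1 had the smallest p, at 948 ± 21.8 CPM in the 5 control females and 865 ± 40.9 CPM in the 4 Hand2 females, a log2 difference of -0.13 ± 0.05 (edgeR adjusted p = 0.836). Cdkn1a was at 168.6 ± 55.6 and 104.8 ± 20.2 CPM in these groups (log2 difference -0.68 ± 0.42, edgeR adjusted p = 0.89), and Gadd45b differed by -0.73 ± 0.60. Within males 4 differences were positive and 5 negative, the median being -0.039 and 0 called, and Cdkn1a was at 58.9 ± 47.9 and 45.4 ± 4.66 CPM. The difference between the sexes in the vector effect, tested as an interaction, called 0 of the 9 (edgeR adjusted p = 0.9997 for Gadd45b, with an estimate of 0.93 ± 0.88). Cdkn2a counts were 16 in control females, 0 in Hand2 females, 2 in control males and 8 in Hand2 males, and the exact permutation test within females gave p = 0.0476, or 0.19 when adjusted over the 4 tests of this gene. Within males the exact permutation test gave p = 0.107, adjusted to 0.214.

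**Figure D2:**
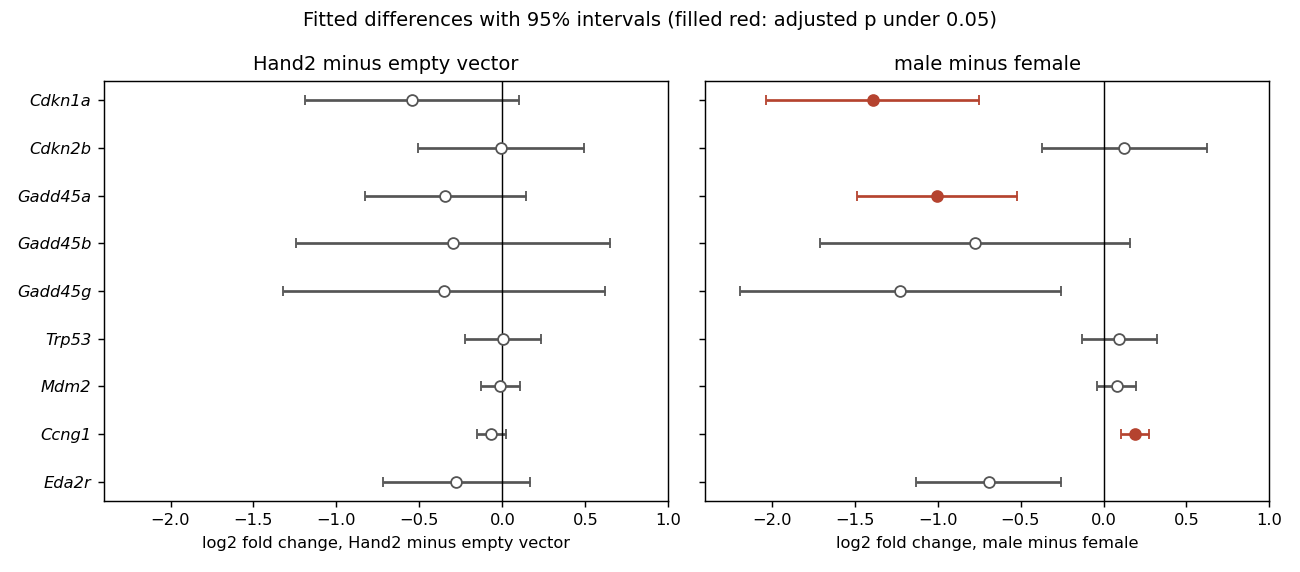
Fitted log2 fold change of the 9 tested genes with 95% intervals, Hand2 minus empty vector on the left and male minus female on the right. Filled red points have an adjusted p under 0.05: there are 0 on the left, where Mdm2 and Ccng1 have the shortest bars, and 3 on the right, with Cdkn1a and Gadd45a below 0 and Ccng1 just above it.

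The sign of the vector differences for the GADD45 genes differed between the fits of single ages and turned without 3 control animals. Whether the vector difference changes with age was not tested. The empty-vector females of 23 months held Gadd45g at 255.2, 248.6 and 178.6 CPM, against 28.1 and 51.4 CPM in those of 22 months. The 8 males reached at most 90.4 CPM, and the Hand2 females were at 82.3, 95.02, 197.3 and 45.1 CPM. Gadd45g thus showed its highest values in those 3 controls and in Hand2 replicate 3. In the fit of 22-month animals the log2 difference of Gadd45g between vectors was 1.503, and in that of 23-month animals it was -1.33. The corresponding pair was 0.68 and -0.30 for Gadd45b and 0.21 and -0.51 for Gadd45a, while Cdkn1a (-0.13 and -0.72) and Eda2r (-0.42 and -0.28) kept 1 sign. Without the 3 control females of 23 months the vector differences were 0.48 for Gadd45g, 0.45 for Gadd45b, 0.029 for Gadd45a and -0.31 for Cdkn1a, and none was called. Within the Hand2 group the 4 animals of 22 months are also those whose titles lack a sex letter, so age and that feature cannot be told apart.

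**Figure D3:**
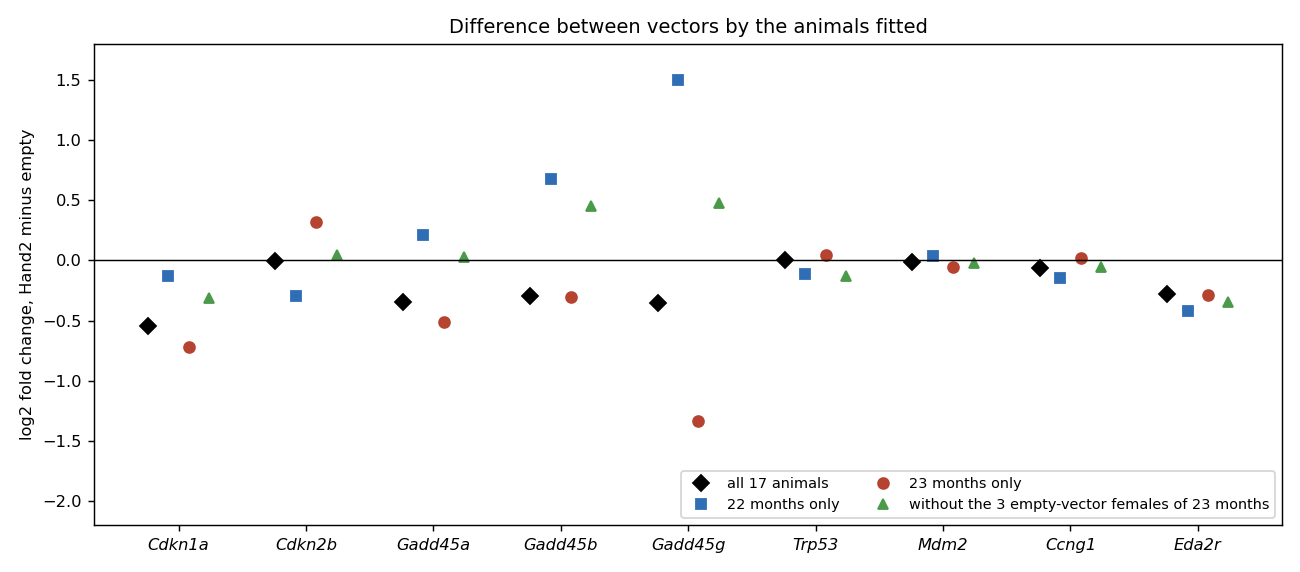
Difference between vectors (log2 fold change, Hand2 minus empty vector) of the 9 tested genes in 4 sets of animals: all 17, those of 22 months, those of 23 months, and all but the 3 empty-vector females of 23 months. Gadd45g runs from -1.33 to 1.503 over these sets, while Ccng1, Mdm2 and Trp53 stay near 0.

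Sex, which the labels give and the design balances only in part, went with larger differences than the vector. Cdkn1a and Gadd45a were lower and Ccng1 higher in males than in females, and these 3 were called of the 9 tested (1 higher, 2 lower). Over all genes 786 of 13965 were called, a background of 5.63% (406 or 2.91% higher, 380 or 2.72% lower). With DESeq2 the background was 9.1% and with limma-voom 7.48%, and both called the same 3 genes, to which DESeq2 added Eda2r. The median of the 9 was -0.69 on the log2 scale, against 0.0006 for all genes. At an unadjusted p under 0.05 there were 5 of the 9 and 3017 of all genes.

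Cdkn1a, the p21 gene (Entrez 12575, chr17:29090986-29100722, plus strand, mm10), was at 118.7, 123.8, 205.7, 246.6 and 147.9 CPM in the 5 control females. The Hand2 females held 127.1, 93.1, 115.9 and 83.3 CPM. Among control males it was at 142.9, 30.1, 29.9, 38.9 and 52.6 CPM, and among Hand2 males at 47.2, 40.1 and 48.9 CPM. Every male but empty-vector replicate 6 thus lay below every female. The 9 females averaged 140.2 ± 53.2 CPM and the 8 males 53.8 ± 36.9 CPM, a log2 difference of -1.39 ± 0.30 (95% interval -2.03 to -0.75, edgeR adjusted p = 0.0148), or 2.62-fold lower in males. Leaving out replicate 6 made it -1.73 (edgeR adjusted p = 0.000403).

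Gadd45a, the member of its family linked to denervated muscle (Entrez 13197, chr6:67035096-67037407, minus strand), was at 83.3, 52.8, 96.1, 133.3 and 226.8 CPM in control females and at 90.6, 84.2, 99.5 and 61.4 CPM in Hand2 females. Control males held 50.0, 44.0, 66.9, 51.2 and 57.4 CPM and Hand2 males 47.4, 43.1 and 53.8 CPM. The sexes overlapped through 2 females, empty-vector replicate 2 and Hand2 replicate 5, whose values lay within the male range. Means of 103.1 ± 51.8 and 51.7 ± 7.76 CPM gave a log2 difference of -1.002 ± 0.23 (95% interval -1.48 to -0.52, edgeR adjusted p = 0.0187), and the SD was larger in females than in males.

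Ccng1, the cyclin G gene (Entrez 12450, chr11:40748552-40755286, minus strand), differed in the other direction and by little. It was at 948, 969.8, 912, 958 and 953 CPM in control females and at 1034, 1067, 1077, 1014 and 1001 CPM in control males, 2 ranges that did not overlap, as was so for 3.56% of all tested genes and for no other of the 9. The Hand2 females held 904, 842, 820.1 and 895 CPM, and the Hand2 males 938, 1115 and 1083 CPM. In males of both vectors together the mean was 1041 ± 56.3 CPM and in females 911 ± 52.7 CPM, a log2 difference of 0.19 ± 0.04 (95% interval 0.10 to 0.27, edgeR adjusted p = 0.0105), or 1.14-fold. Over all 17 animals none of the 9 genes had sexes that did not overlap (background 0.845%).

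Eda2r, the receptor gene (Entrez 245527, chrX:97333841-97377209, minus strand), was at 36.2 ± 13.6 CPM in females and 22.4 ± 4.63 CPM in males, a log2 difference of -0.69 ± 0.21 that missed the threshold (edgeR adjusted p = 0.0605). Its highest values were 63.9 and 49.1 CPM in control females 2 and 5, and its lowest were 14.0 CPM in a Hand2 male and 16.6 CPM in a Hand2 female. By DESeq2 its adjusted p was 0.00742. Gadd45g, at 131.3 ± 89.4 and 56.2 ± 24.8 CPM, differed by -1.22 ± 0.45 (edgeR adjusted p = 0.129) and Gadd45b, at 56.2 ± 52.4 and 32.3 ± 9.30 CPM, by -0.78 ± 0.44 (edgeR adjusted p = 0.328).

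The transcripts of p53 itself and of its antagonist did not pass the test between sexes. Trp53 was at 19.7 ± 3.80 CPM in females and 21.0 ± 2.02 CPM in males (log2 difference 0.10 ± 0.11, 95% interval -0.13 to 0.32, edgeR adjusted p = 0.655). Mdm2 was at 76.2 ± 5.07 and 80.5 ± 7.22 CPM (0.08 ± 0.06, 95% interval -0.04 to 0.20). Cdkn2b was at 1.14 ± 0.326 and 1.24 ± 0.433 CPM (0.13 ± 0.24, 95% interval -0.37 to 0.62).

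Age was unequal between the sexes, with 5 females and 2 males of 22 months and 4 females and 6 males of 23 months, so the comparison was repeated at each age. Cdkn1a was lower in males at 22 months (log2 difference -1.23, edgeR adjusted p = 0.00441), and its value at 23 months was -1.51 (edgeR adjusted p = 0.173). Gadd45a was at -0.60 and -1.22 (edgeR adjusted p = 0.881 and 0.0799) and Ccng1 at 0.10 and 0.19 (edgeR adjusted p = 0.969 and 0.0557). Without the 3 control females of 23 months the differences were -1.13 for Cdkn1a, -0.60 for Gadd45a and 0.20 for Ccng1 (edgeR adjusted p = 0.131, 0.0578 and 0.0641), so the calls were lost while the signs stayed. Gadd45b was then at 0.051 and Gadd45g at -0.33, against -0.78 ± 0.44 and -1.22 ± 0.45 (SE) in the fit of all 17 animals. Contrasts of sex inside each vector came from 1 fit of all 17 animals by vector and sex. For Cdkn1a, Gadd45a and Ccng1 they were -1.52, -1.14 and 0.13 among controls. Among Hand2 animals they were -1.21, -0.80 and 0.27, with no call at either vector. All 3 genes were called in each of the 17 fits that left out 1 animal.

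Counting bears on 2 of these genes. By GENCODE (GRCm38), 273 exon bases of Cdkn1a are shared with AC167363.2 and 337 of Gadd45a with E230016M11Rik, both on the opposite strand. Whether counting used strand is not stated, so reads of these partners cannot be told apart.

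The p53 pathway beyond the 10 genes did not move one way with sex. Of 31 tested p53 targets 2 rose and 4 fell in males, with 10 higher and 21 lower in sign and a median of -0.08 on the log2 scale (all genes 0.0006). Beside this and the counts of the other lists by sex stands the 5.63% called over all genes, with 2.91% higher and 2.72% lower. Sesn1, a sestrin that restrains the growth kinase mTORC1, fell from 83.2 ± 17.6 CPM in females to 40.4 ± 6.70 CPM in males (log2 difference -1.04 ± 0.13, edgeR adjusted p = 0.000131). Fas, a death receptor, differed by -0.73 ± 0.19 (edgeR adjusted p = 0.0345), and Trp53inp1, a p53-induced nuclear protein, by -0.79 ± 0.22 (edgeR adjusted p = 0.0419). Ddit4, an mTORC1 inhibitor that glucocorticoids and hypoxia also induce, was at 160.8 ± 181 CPM in females and 19.8 ± 9.89 CPM in males (-2.95 ± 0.75, edgeR adjusted p = 0.0354). Polk, a DNA polymerase that bypasses lesions, rose from 7.03 ± 0.953 to 12.0 ± 1.90 CPM (0.77 ± 0.10, edgeR adjusted p = 0.00014), and 9630033F20Rik, the symbol used here for Tigar, rose by 0.31 ± 0.08 (edgeR adjusted p = 0.0329). Without the 3 control females of 23 months 1 rose and 1 fell, Polk (0.75) and Sesn1 (-0.95), and Ddit4 was at -1.37 (edgeR adjusted p = 0.415).

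Among 18 tested p53 regulators and partners 1 rose and 1 fell in males: the kinase Hipk2, which phosphorylates p53, by 0.40 ± 0.11, and the p53 relative Trp63 by -0.53 ± 0.15. Of the 8 other CDK inhibitors and RB family genes, Cdkn2c (p18) rose by 0.51 ± 0.13 and Rb1, the retinoblastoma gene itself, fell with a value of -0.27 ± 0.08 (edgeR adjusted p = 0.024 and 0.0452). None of 14 cyclins and CDKs was called, 11 being higher in males with a median of 0.11, where those of 22 months alone had a median of -0.09. Of 19 proliferation genes 1 rose, the mitotic kinase Aurka (0.72 ± 0.18), a share near the 5.63% of all genes. Without the 3 control females of 23 months none of these genes was called, with Hipk2 at 0.46, Trp63 at -0.52, Cdkn2c at 0.57, Rb1 at -0.21 and Aurka at 0.63 (edgeR adjusted p = 0.0516, 0.153, 0.0532, 0.0854 and 0.172).

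Genes of the lists around the GADD45 proteins and EDA2R were called in a few cases. Of 11 MAP kinases linked to GADD45, 2 rose in males (5.63% of all genes were called): Mapk14 (p38alpha) by 0.27 ± 0.05 (edgeR adjusted p = 0.00382) and Mapk11 (p38beta) by 0.67 ± 0.18 (edgeR adjusted p = 0.0339). Of 11 genes around EDA2R, the adaptor Traf2 rose by 0.41 ± 0.08 and Edar, the receptor of the other ectodysplasin isoform, fell from 0.760 to 0.293 CPM (-1.40 ± 0.38). The gene of the ligand, Eda, was at 0.56 ± 0.17 (edgeR adjusted p = 0.0594). Without the 3 control females of 23 months these lists held no call, with Mapk14 at 0.25, Mapk11 at 0.51, Traf2 at 0.34 and Edar at -1.28 (edgeR adjusted p = 0.0516, 0.165, 0.0744 and 0.184).

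2 further lists hold genes linked to denervation, set beside Gadd45a, and immediate-early genes, set beside Gadd45b and Gadd45g. The denervation list was not sorted by the direction in which its genes move after loss of the nerve. Of 12 denervation markers beside Gadd45a, 2 fell in males: Myog (myogenin, from 11.1 ± 8.14 to 3.67 ± 1.17 CPM, edgeR adjusted p = 0.0323) and Ankrd1 (-1.09 ± 0.31, edgeR adjusted p = 0.0499). Myog was at 24.7, 21.5 and 16.9 CPM in the 3 control females of 23 months and at most 11.9 CPM in every other animal. Of 17 immediate-early genes beside Gadd45b and Gadd45g, all 17 were lower in males in sign, with a median of -0.94, and 1 fell by the test, Myc (-1.19 ± 0.25, edgeR adjusted p = 0.00914), a share near the 5.63% called over all genes. Without those 3 females 13 immediate-early genes were lower and 4 higher with a median of -0.21. No gene of either list was then called, with Myog at -0.79, Ankrd1 at -0.97 and Myc at -0.85 (edgeR adjusted p = 0.187, 0.195 and 0.12).

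**Figure D4:**
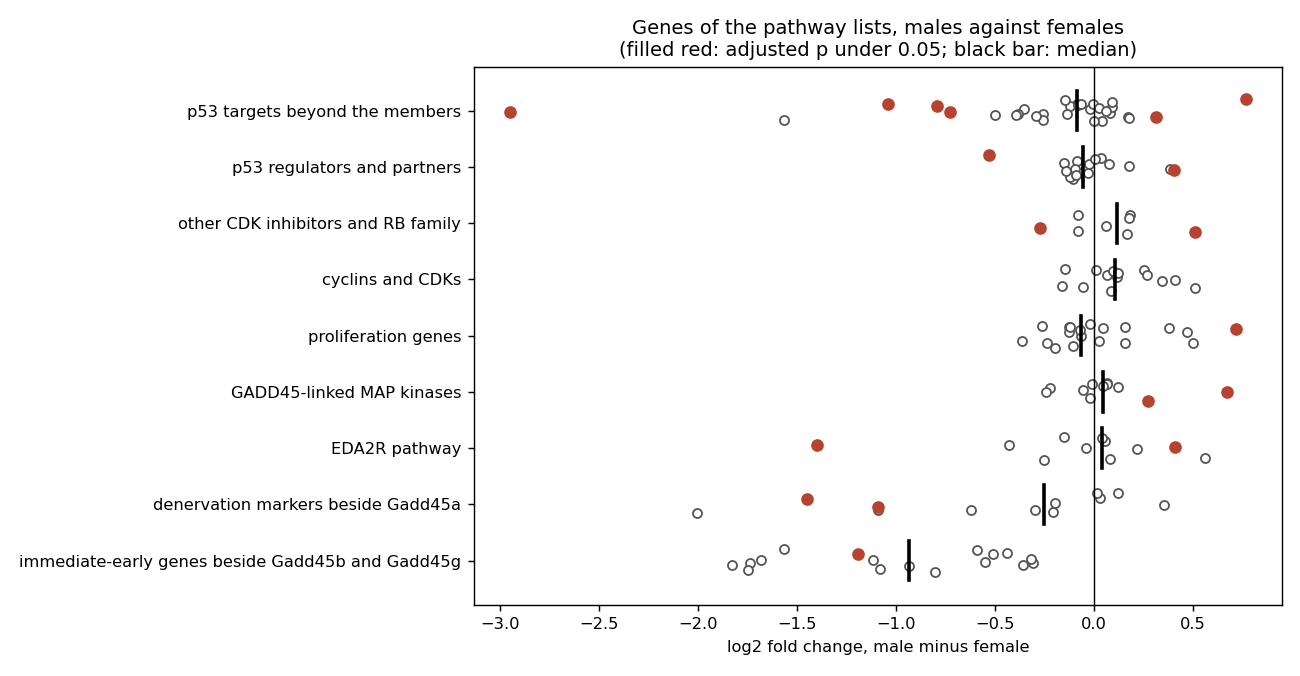
Log2 fold change (male minus female) of each tested gene in the 9 lists around the 10 genes. Points are genes, filled red where the adjusted p is under 0.05, black bars are list medians and the vertical line is no difference; the p53 targets scatter on both sides with a median of -0.08, while all 17 immediate-early genes lie left of the line.

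No gene of these lists was called between vectors. The medians were 0.003 for the p53 targets, 0.008 for p53 regulators, 0.02 for other CDK inhibitors, 0.06 for cyclins and CDKs, -0.002 for proliferation genes and -0.02 for the MAP kinases, against -0.004 for all genes. The genes of smallest p within each of these 6 lists were, in that order, Btg2 (-0.94 ± 0.49), Hipk2 (-0.30 ± 0.11), Cdkn2aip (0.13 ± 0.088), Cdk2 (0.33 ± 0.11), Cenpa (-0.48 ± 0.21) and Map2k7 (0.092 ± 0.055), each with an edgeR adjusted p of 0.921. Of the 11 EDA2R pathway genes 10 were lower with Hand2 in sign, with a median of -0.17 and with Relb at -0.28 ± 0.11 and Nfkb2 at -0.40 ± 0.16. In the fits of single ages 6 of these 11 were lower at 22 months and 7 at 23 months. Without the 3 control females of 23 months 10 were lower (median -0.12). Beside this count and those of the next 2 lists stand the 51.7% of all genes that were lower. For the denervation markers 11 of 12 were lower (median -0.23, Myog -0.99 ± 0.38), where without the 3 control females of 23 months 9 were lower (median -0.082). Because that list was not sorted by direction, its count of signs does not measure a denervation response. For the immediate-early genes 15 of 17 were lower (median -0.34, Atf3 -2.34 ± 0.69), where without the 3 control females of 23 months 13 were higher (median 0.21).

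Markers of other cell types differed by sex for adipocytes and, in 1 gene, satellite cells. The summed adipocyte markers ranged from 20.3 to 66.7 CPM in females and from 8.69 to 29.2 CPM in males, and 3 of 4 (Cidec, Adipoq and Plin1) were called lower in males. Satellite cell markers summed to 41.7 to 53.8 CPM in females and 33.7 to 47.3 CPM in males, with 1 of 4 called, Cdh15 (-0.37 ± 0.08), which made up most of that sum. The 4 satellite cell markers were 2 higher and 2 lower in males, with a median of 0.071. Red blood cell markers ranged from 307 to 2412 CPM in females and from 280 to 2286 CPM in males with 0 of 4 called between sexes, and the 3 control females of 23 months held 1546 to 2412 CPM against 581 and 809 CPM in those of 22 months. Schwann cell markers were at 185 to 198 CPM in those 3 females and at 120 and 168 CPM in the control females of 22 months. They were at 125 to 180 CPM in Hand2 females and at 128 to 165 CPM in males. No marker of these 4 types was at 0 in a whole group, and the part of these cells in the differences of Cdkn1a, Gadd45a and Gadd45g was not tested. With Hand2 all 5 macrophage markers (median 0.35) and all 5 fibro-adipogenic cell markers (median 0.18) were higher, where 51.7% of all genes were lower. Of the endothelial markers 3 of 4 were lower, and of the adipocyte markers 3 of 4. Red blood cell markers had a median vector difference of -0.94 in females and 1.58 in males. None of these was called between vectors.

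Whether the genes varied together was examined within groups of the same vector and sex, without Cdkn2a. Over the 36 pairs of the 9 tested genes, correlations of log2 CPM after removal of the 4 group means gave no pair past a Benjamini-Hochberg threshold of 5% (within-group permutation test, two-sided, 17 animals). The smallest p belonged to Trp53 and Eda2r (Pearson r = 0.699, permutation p = 0.00927, adjusted p = 0.334, Spearman rho = 0.618, permutation p = 0.0256, adjusted p = 0.452), and r was 0.444 without the 2 animals farthest from the median Trp53 level. Without the 3 control females of 23 months r was 0.571 for this pair. Cdkn1a and Gadd45g came next (r = 0.486, permutation p = 0.0221, adjusted p = 0.398, rho = 0.593, permutation p = 0.0202, adjusted p = 0.452), with r = 0.451 without 2 animals and 0.336 without the 3 control females of 23 months. Gadd45g ran against Trp53 (r = -0.628, permutation p = 0.0444, adjusted p = 0.4, rho = -0.588, permutation p = 0.0576), with r = -0.511 without 2 animals and -0.362 without the 3 control females of 23 months.

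The genes whose log2 CPM most resembled each of these over the 17 animals were sought among 12153 genes with a mean of at least 1 CPM, as a description in which sex, age and library are shared. Gadd45g had Ddit4 as its nearest gene (Pearson r = 0.957, and 0.956 after removal of group means), then Zfp628 (0.952) and Slc10a6 (0.947), and without the 3 control females of 23 months r with Ddit4 was 0.917 over 14 animals. For Cdkn1a the nearest were Copb1 (0.903), Rnf128 (0.889) and Hnrnpc (0.877), at 0.79, 0.693 and 0.822 after removal of group means, and for Gadd45a they were Rpl3 (0.912), Ctsl (0.895) and Spsb1 (0.886), at 0.84, 0.763 and 0.772 after that removal. Trp53 was nearest to Pygo2 (0.935), Pex26 (0.89) and Ybey (0.853), at 0.927, 0.884 and 0.837. With the value after removal of group means second, Eda2r was nearest to Tubb5 (0.882 and 0.847), Ccng1 to Pla2g16 (0.894 and 0.593), Gadd45b to Sfrs18 (0.858 and 0.906), Mdm2 to Pip5k1a (0.825 and 0.814) and Cdkn2b to Decr2 (0.773 and 0.759). None of these nearest genes is among the 10.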

How the data were processed

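Libraries were made from EDL muscle with Illumina TruSeq v2 reagents, per the labels, and mm10 is the build in the submitters' processing notes. Estimated counts per gene and normalized log2 values were deposited by the authors and come from re-aligned reads on RefSeq genes, per the file headers. The aligner, counter and strand setting are details not given in the sources used here. Counts were rounded and filtered with filterByExpr, which kept 13965 genes. After TMM scaling (trimmed mean of M values), robust quasi-likelihood F tests were run in edgeR 4.0.16 under R 4.3.3, and p-values were adjusted by Benjamini-Hochberg over all genes at 5%. The vector and sex differences share 1 additive model, while those inside a sex or inside a vector, and the interaction, use 4 vector-by-sex groups. SE is the log2 fold change over the square root of F, and CPM are TMM-scaled. Gene coordinates are mm10, and transcript lengths are from GENCODE. The fitting code was also run on counts simulated from its own fitted model, without differences by age. That run does not show how the fits behave where a few animals stand apart.

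Replicate numbers were given by accession and pair no samples. The 10 genes and the lists of related genes were chosen with earlier results of these data known. The rule for names took all 10 genes, the 4 genes of smallest p in each list for each of the 2 comparisons and the 3 genes most like each in pattern, of which the text names a part. Ddit4 and Trp53inp1, among the called p53 targets, and the named cell type markers were added after their values were seen. Alternatives were DESeq2 1.42.0, limma-voom (limma 3.58.1), other scalings and filters, an age term, single ages and leaving out each animal. Added after seeing the data were fits without the control females of 23 months, sex within each vector, and limma on the authors' normalized log2 values. Intervals and floors cover counting and animals only.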

Additional observations from a re-analysis of the deposited data

Results flagged for a closer look

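In groups of 4 to 10 animals, the gap between the most extreme animal and its neighbour was set against Dixon's 95% critical value, which chance passes in about 1 group in 20 where values are normal. The gaps here are on linear CPM and the groups share animals, so that rate need not hold. Over 45 such groups of the 9 tested genes, 5 animals stood apart. Empty-vector replicate 6 held 142.9 CPM of Cdkn1a among control males, where the next animal held 52.6 CPM. For Gadd45a, empty-vector replicate 5 held 226.8 CPM against 133.3 CPM in the next control. Gadd45b was at 183.6 CPM in empty-vector replicate 3 against 90.2 CPM in the next control, and at 44.7 CPM in empty-vector replicate 7 against 29.0 CPM in the next control male. Hand2 replicate 3 held 197.3 CPM of Gadd45g against 95.02 CPM in the next Hand2 animal.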

How the results depend on the processing

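Cdkn2a rests on 26 counts in all libraries together, so differences in it near the 3-count floor were not detectable at this depth. No paired analysis was possible because the replicate numbers come from the order of accessions and tie no 2 animals together. Of all genes, DESeq2 called 1 between vectors, 7 in females and 1 in males where edgeR called 0, and leaving out 1 animal gave 0 to 1, 0 to 1 and 0 to 2. Between sexes the 786 calls of edgeR became 1271 with DESeq2, 24 at 22 months, 413 at 23 months, 291 without the control females of 23 months and 476 to 952 when 1 animal was left out. The contrast of sex inside controls called 203 and that inside Hand2 animals 72, both from the fit of all animals. Upper-quartile scaling moved the split to 514 higher and 270 lower (406 and 380 with TMM). The calls of Cdkn1a, Gadd45a and Ccng1 between sexes held under every other scaling, filter and tool and with an age term; Eda2r was also called without Hand2 replicate 3, Hand2 replicate 4 or empty-vector replicate 4.

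Signs turned as follows, in log2 units; none of these values passed the test, and the cause was not tested. Between vectors at 22 months: Gadd45a 0.21, Gadd45b 0.68, Gadd45g 1.503, Mdm2 0.034 and Trp53 -0.11; at 23 months: Cdkn2b 0.32 and Ccng1 0.018. With an age term Cdkn2b was at 0.077, Gadd45b at 0.0049 and Trp53 at -0.019, and without a sex term Trp53 was at -0.0077. Upper-quartile scaling gave Cdkn2b 0.011 and Mdm2 0.0021, and limma on the authors' values gave Gadd45b 0.031. Without the control females of 23 months the vector values were Cdkn2b 0.043, Gadd45a 0.029, Gadd45b 0.45, Gadd45g 0.48 and Trp53 -0.13, in females Gadd45a 0.30, Gadd45b 0.83, Gadd45g 1.40 and Trp53 -0.15, and for the interaction Cdkn1a -0.17, Gadd45a -0.46, Gadd45b -0.63, Gadd45g -1.53 and Trp53 0.030. In males Cdkn1a was at 0.024 with limma-voom and Gadd45g at 0.015 with an age term. Between sexes Cdkn2b was at -0.35 at 22 months, -0.0093 with an age term and -0.056 in controls, Gadd45b at 0.092 at 22 months and 0.051 without the control females of 23 months, Trp53 at -0.052 at 22 months, -0.034 in Hand2 animals and -0.049 without those females, and Mdm2 at -0.020 at 22 months.

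Leaving out 1 animal turned signs in these ranges. Between vectors they were -0.13 to 0.098 (Cdkn2b), -0.46 to 0.13 (Gadd45b), -0.040 to 0.012 (Mdm2) and -0.055 to 0.056 (Trp53), and in females -0.998 to 0.062 (Gadd45b). In males they were -0.040 to 0.081 (Ccng1), -0.55 to 0.26 (Cdkn1a), -0.27 to 0.20 (Eda2r), -0.047 to 0.45 (Gadd45b), -0.77 to 0.16 (Gadd45g) and -0.033 to 0.080 (Mdm2), and for the interaction -0.041 to 0.52 (Gadd45a) and -0.23 to 0.91 (Gadd45g). With a pseudocount of 0.5 the exact permutation test of Cdkn2a gave p = 0.814 for the vector.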
